A study of Mus musculus with 24 samples.

Results

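Metallothionein 1 (Mt1), metallothionein 2 (Mt2), haem oxygenase 1 (Hmox1) and the transcription factor Nrf2 (gene symbol Nfe2l2) were examined in cultured mouse embryos exposed to an activated form of cyclophosphamide. The members were all probes whose platform annotation names 1 of these 4 genes and no other gene. The genes were 4 of 6970 with a single-symbol probe, and their probes 6 of 15360 in all: 1 for Mt1, 2 for Mt2, 1 for Hmox1 and 1 for Nfe2l2 among 7680 probes of the first value table, and a further Nfe2l2 probe among 7680 of the second. Mt1, Mt2 and Hmox1 had no single-symbol probe in the second table.

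Treated embryos were kept at 37 °C with 40 µM 4-hydroperoxycyclophosphamide (4CP) in the medium for 1 h, and control embryos were cultured at 37 °C without drug. 4CP is a preactivated analogue, per the labels, so it does not need the liver to become reactive. Treated and control RNA shared every array, 1 in each channel, over 24 arrays on 12 slides. A table held 3 slide pairs, numbered 1 to 3, and in each pair the second slide carried the channels swapped. Each slide has 2 records, and the title of 1 of them carries the letter B. They are called arrays here, although the labels leave unsaid if these were separate arrays or repeat scans. The sources used here do not give strain, stage or number of embryos per RNA sample, nor whether a pair number stands for a separate culture, so the spread between pairs may be technical.

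Metallothioneins are small cysteine-rich proteins that bind zinc, copper and cadmium. Their genes are switched on by metals through the zinc-sensing factor MTF1 and also answer oxidants, and in the conceptus they are known for high expression in the visceral yolk sac. Nrf2 is held in the cytoplasm and marked for destruction by Keap1 until electrophiles modify Keap1, after which Nrf2 enters the nucleus and binds antioxidant response elements with small Maf proteins. Haem oxygenase 1 opens the haem ring to release iron, carbon monoxide and biliverdin, and its gene is a classic Nrf2 target that Bach1 represses. Acrolein, 1 of the products of activated cyclophosphamide, is an electrophile of the kind these genes are known to answer.

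The metallothionein promoters are shown because Mt1 and Mt2 lie next to each other with no other gene between them in the RefSeq gene table and are usually induced together. The Nfe2l2 promoter is shown because this gene was measured in both tables. Sequences are from RefSeq, build GRCm38.p6, for 3 of the 4 members, from 250 bases before the annotated transcript start to 30 bases after it, 5′ to 3′ along the gene. Capitals mark matches, on either strand, to the core of the metal response element, TGCACNC or TGCGCNC, and to a core of the antioxidant response element, TGACNNNGC. No match to 1 motif overlapped a match to the other.
Mt1, chr8:94178839-94179118, plus strand: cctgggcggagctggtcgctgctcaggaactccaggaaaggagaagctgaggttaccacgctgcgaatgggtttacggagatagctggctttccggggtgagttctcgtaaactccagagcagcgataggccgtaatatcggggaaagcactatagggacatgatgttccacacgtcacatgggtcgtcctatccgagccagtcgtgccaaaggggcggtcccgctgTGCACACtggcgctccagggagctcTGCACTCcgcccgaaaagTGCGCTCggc
Mt2, chr8:94172368-94172647, plus strand: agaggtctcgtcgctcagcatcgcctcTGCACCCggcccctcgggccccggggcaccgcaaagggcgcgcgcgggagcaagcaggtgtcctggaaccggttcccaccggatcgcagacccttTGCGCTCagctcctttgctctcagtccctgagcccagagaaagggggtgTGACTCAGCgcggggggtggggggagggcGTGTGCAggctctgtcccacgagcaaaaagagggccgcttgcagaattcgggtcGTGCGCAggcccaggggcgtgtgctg
Nfe2l2, chr2:75704634-75704913, minus strand: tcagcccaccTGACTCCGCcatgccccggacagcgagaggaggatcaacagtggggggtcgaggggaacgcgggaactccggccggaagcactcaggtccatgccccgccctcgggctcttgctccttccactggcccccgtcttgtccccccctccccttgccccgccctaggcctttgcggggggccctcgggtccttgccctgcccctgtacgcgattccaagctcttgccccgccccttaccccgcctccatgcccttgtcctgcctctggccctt

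The Mt1 window held 3 matches to the metal response core and none to the antioxidant response core. The RefSeq gene table begins Mt1 at 94178883, inside this window and before the transcript start on which the window was set. Bases outside the window were not searched, so the counts do not cover the whole Mt1 promoter region. The Mt2 window held 4 matches to the metal response core and 1 to the antioxidant response core, and the Nfe2l2 window held 1 match to the antioxidant response core. Among 32851 promoter windows of the same length in the RefSeq table, 24.1% held at least 1 metal response core, 1.73% held at least 3, and 11.5% held the antioxidant response core. These matches describe letters and do not show that a factor was bound.

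Values were deposited as log ratios between channels, with neither the log base nor the numerator stated. Base 10 would need ratios beyond a 16-bit scanner, since the highest value, 7.71, exceeds 4.82, so the base is 2 or e. Arrays were centred on their medians, and a slide's value is the mean of its arrays. Within a pair the value of the swapped slide was subtracted from that of its partner, which had treated RNA in channel 1, and the result, divided by 2, is the treatment effect, so that a dye effect shared by both slides cancels. With channel 1 as numerator, effects above 0 stand for higher transcript abundance after 4CP. With channel 2 as numerator, every sign turns. If swapped slides had been turned before deposit, the treatment effect would instead be the mean of both slides, here called the shared component, which is given beside each member.

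No member probe passed the test. With limma, 0 of 7680 probes in each table had an adjusted p below 0.05 (0% in both), and 0 of the 6 member probes did. At an unadjusted p below 0.05 there were 2 of 5 member probes in the first table, where all probes gave 2.34%, and 0 of 1 in the second, where all probes gave 5.22%. Effects were positive in all 3 slide pairs for 3 of 5 member probes in the first table, against 11.4% of all probes, and for the 1 member probe of the second table, against 9.84%. No member was negative in all 3 pairs, as 11.2% of first-table and 14.7% of second-table probes were. These counts are descriptions, because the members were chosen with earlier results of these data known. With a slide pair left out, 24 to 30 probes passed in the first table and 0 to 58 in the second, and no member was among them.

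**Figure D1:**
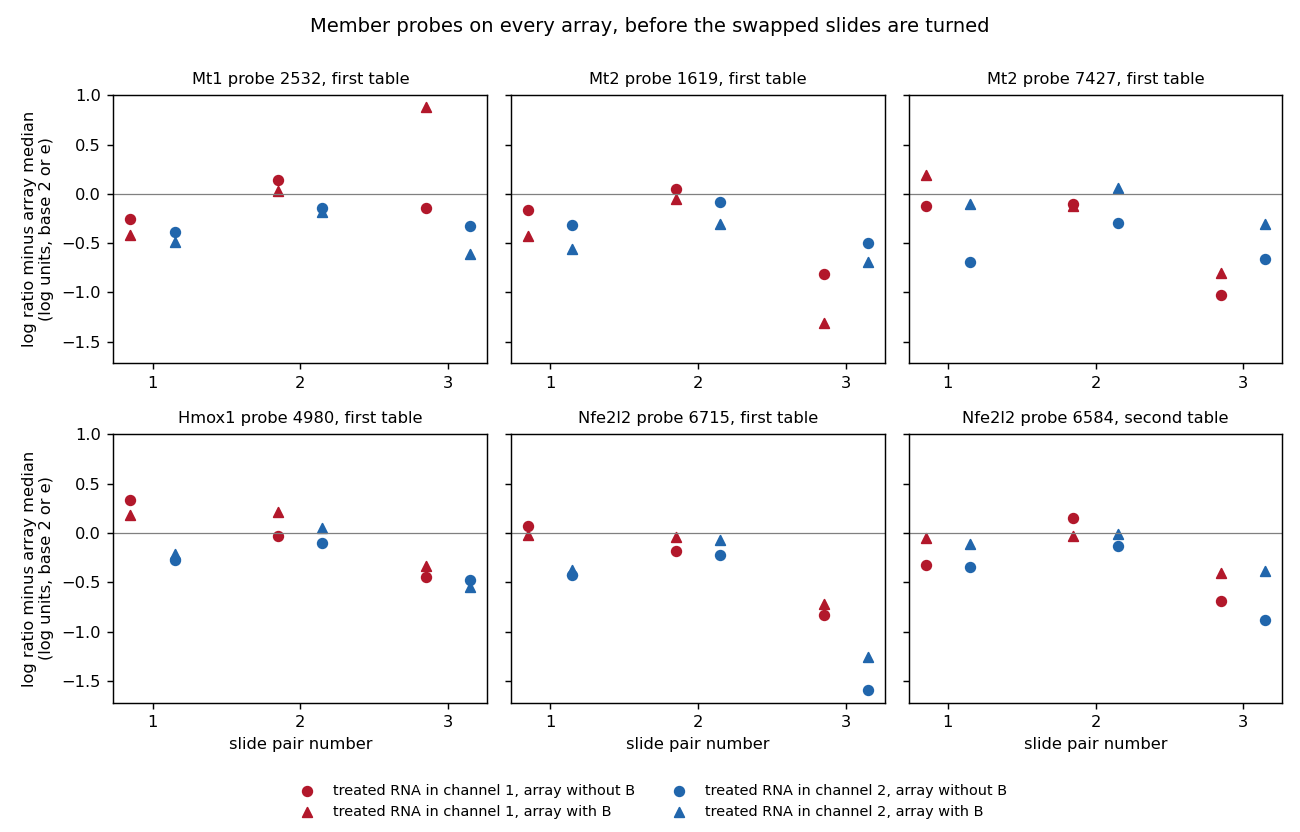
Log ratio minus the array median (log units, base 2 or e) for each member probe on every array, by slide pair number. Red marks arrays with treated RNA in channel 1, blue those with it in channel 2, circles the arrays without the letter B and triangles those with it. A probe with more treated RNA should have red above blue in every pair, under channel 1 as numerator. Mt1 has 1 red triangle at 0.88 in pair 3, far above the other array of its slide at -0.14.

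Mt1 had the highest mean effect of the 6 probes, 0.20 ± 0.19 (SD, n = 3). Centred log ratios of the 6 arrays with treated RNA in channel 1 ran from -0.42 through a median of -0.06 to 0.88. In the 6 swapped arrays they ran from -0.61 through a median of -0.36 to -0.15. The groups overlapped across pairs, but within each pair the channel 1 slide lay above its partner. Slide means were -0.335 and -0.435 in pair 1, 0.083 and -0.167 in pair 2, and 0.368 and -0.468 in pair 3, the swapped slide second. The effects were therefore 0.05, 0.13 and 0.42 in pairs 1, 2 and 3. The 95% confidence interval of the mean was 0.03 to 0.36 before adjustment (limma p = 0.0232, adjusted p = 0.997). The mean stands for 1.22-fold in base e and less in base 2, and the upper bound for 1.28-fold in base 2 and 1.44-fold in base e.

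Pair 3 of Mt1 rested on 1 array. On the slide with treated RNA in channel 1, the arrays without and with the letter B read -0.14 and 0.88, a gap of 1.02 that only 43 of 7680 probes (0.56%) matched or exceeded on that slide. Single-array effects in pair 3 were 0.09 for arrays without B and 0.74 for arrays with B. In the other pairs they ran from 0.03 to 0.14. With arrays without B alone, the mean effect of Mt1 was 0.10 (adjusted p = 0.958 with limma), and without pair 3 it was 0.09 (adjusted p = 1). The shared component of Mt1 was -0.39, -0.04 and -0.05 in pairs 1, 2 and 3.

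Mt2, the neighbouring metallothionein gene, had mean effects close to 0 on both of its probes. Probe 1619 gave 0.07, 0.10 and -0.24 in pairs 1, 2 and 3, with a mean of -0.02 ± 0.18 (SD, n = 3; 95% interval -0.18 to 0.13, adjusted p = 0.997 with limma). Probe 7427 gave 0.21, 0.0036 and -0.21, with a mean of 0.00059 ± 0.21 (95% interval -0.17 to 0.17, adjusted p = 0.999). Both probes were positive in pairs 1 and 2 and negative in pair 3.

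Readings of Mt1 and Mt2 lay apart on 1 slide of pair 3. With treated RNA in channel 1, slide means of pair 3 were -1.06 for probe 1619 and -0.91 for probe 7427, the lowest of the 6 slides for each, and Mt1 had 0.37 on the same slide, its highest. On the swapped slide of pair 3 the values were -0.59, -0.48 and -0.47, so the 3 probes lay close together there. Over arrays, probe 1619 ran from -1.31 through a median of -0.30 to 0.05 with treated RNA in channel 1 and from -0.69 through -0.40 to -0.08 in the swapped arrays. Probe 7427 ran from -1.03 through -0.12 to 0.19 and from -0.69 through -0.30 to 0.06. The groups overlapped for both probes. The shared component of probe 1619 was -0.37, -0.10 and -0.83 and that of probe 7427 was -0.18, -0.11 and -0.70, lowest in pair 3 for both.

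The difference between Mt1 and the mean of both Mt2 probes was -0.09, 0.08 and 0.64 in pairs 1, 2 and 3, with a mean of 0.21 ± 0.38 (SD, n = 3). The mean difference was 0.07 with arrays without B alone and 0.35 with arrays with B alone. With all arrays, the mean difference was smaller than its SD over pairs. A two-sided exact sign-flip permutation test against 0 gave p = 0.75. With 3 pairs that test cannot go below 0.25, so it could not have reached 0.05. The Mt2 probes differed from each other by -0.14, 0.09 and -0.02. Over the 6 single-array effects of the table, from 3 slide pairs by 2 arrays, Pearson's r was 0.732 between the Mt2 probes and was -0.809 and -0.625 between Mt1 and Mt2 probes 1619 and 7427. These correlations share slides and are given as descriptions. Those with Mt1 include its value of 0.74 from arrays with B in pair 3, while its other values ran from 0.03 to 0.14. Correlations without that value were not computed. Mt1 and Mt2 have similar coding sequences, and cross-hybridisation of the probes was not tested.

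Hmox1, the inducible enzyme of haem breakdown, had a mean effect of 0.12 ± 0.11 (SD, n = 3), with 0.25 in pair 1 and 0.06 in both other pairs. Arrays with treated RNA in channel 1 ran from -0.45 through a median of 0.07 to 0.33, and the swapped arrays from -0.55 through a median of -0.24 to 0.05. The groups overlapped. In pair 1 the slides read 0.256 and -0.243, on opposite sides of the array medians, whereas in pair 3 both lay well below, at -0.394 and -0.514. All 6 single-array effects of Hmox1 were positive, from 0.02 to 0.30. The 95% interval ran from -0.0056 to 0.25 (limma p = 0.0586, adjusted p = 0.997), so its upper bound is 1.19-fold in base 2 and 1.28-fold in base e. Without pair 1 the mean was 0.06 (adjusted p = 0.993). The shared component was 0.01, 0.03 and -0.45.

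Nfe2l2, which encodes Nrf2, was the member gene measured in both tables, with a mean above 0 on both of its probes. The first-table probe had effects of 0.21, 0.02 and 0.33 in pairs 1, 2 and 3 and a mean of 0.19 ± 0.16 (SD, n = 3). Its 95% interval was 0.04 to 0.33 (limma p = 0.0179, adjusted p = 0.997). The second-table probe had 0.02, 0.07 and 0.04 and a mean of 0.04 ± 0.02 (95% interval -0.02 to 0.11, p = 0.183, adjusted p = 0.966). The first mean stands for 1.14-fold in base 2 and 1.21-fold in base e, the second for 1.03-fold and 1.04-fold. Single-array effects were all positive on the first probe, from 0.02 to 0.38. On the second probe 2 of 6 were slightly negative, at -0.01 each in arrays with B of pairs 2 and 3. The tables were normalised separately and their difference was not tested.

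On the first Nfe2l2 probe every swapped array was below its array median, from -1.60 through a median of -0.40 to -0.07. Arrays with treated RNA in channel 1 ran from -0.83 through a median of -0.11 to 0.07. The lowest values on both sides came from pair 3, where the slides read -0.772 and -1.43 and the shared component was -1.10, against -0.19 and -0.13 in pairs 1 and 2. The second probe ran from -0.69 through -0.19 to 0.15 and, swapped, from -0.88 through -0.24 to -0.01, and its shared component was also lowest in pair 3, at -0.21, -0.0076 and -0.59. For both probes the groups overlapped, and in pair 3 both slides lay below their medians. Averaged over both tables within like-numbered pairs, Nfe2l2 had 0.12, 0.04 and 0.19, with a mean of 0.11 ± 0.07 (adjusted p = 0.985 with limma over 6970 genes, of which 0 passed). This matching of pairs is an assumption, since the labels do not say whether like-numbered pairs of both tables share RNA.

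**Figure D2:**
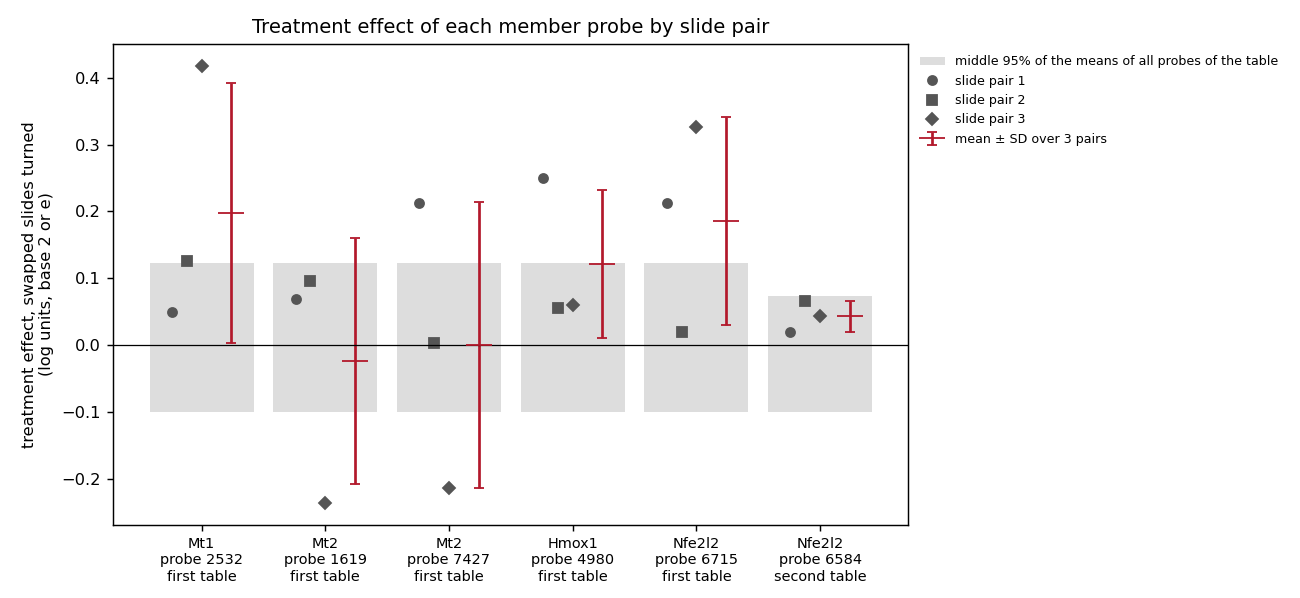
Treatment effect of each member probe (log units, base 2 or e, swapped slides turned): grey symbols are slide pairs 1, 2 and 3, the red bar is the mean ± SD (n = 3), and the grey band holds the middle 95% of the means of all 7680 probes of that table, -0.10 to 0.12 in the first and -0.10 to 0.07 in the second. Mt1 and the first Nfe2l2 probe have means above the band at 0.20 and 0.19, while Hmox1, at 0.12 just under the upper edge, both Mt2 probes and the second Nfe2l2 probe lie inside it.

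In the order of means in the first table, Mt1 (0.20), Nfe2l2 (0.19) and Hmox1 (0.12) were followed by Mt2 probes 7427 and 1619 at about 0, and no neighbours in that order were further apart than the larger of their SDs over pairs. By mean effect, Mt1 stood at percentile 99.5 of all first-table probes, Nfe2l2 at 99.3, Hmox1 at 97.4, and Mt2 probes 7427 and 1619 at 54.2 and 34.9. Within single pairs these places moved. Mt1 was at percentile 58.6 in pair 1, 94.7 in pair 2 and 99.5 in pair 3, and Nfe2l2 was at 96.8, 57.5 and 99.1. The Mt2 probes fell from percentiles 65.4 and 96.8 in pair 1 to 1.62 and 2.01 in pair 3. The second-table Nfe2l2 probe was at percentile 91.4 of that table. The SD of effects across all probes of the first table was 0.124, 0.0987 and 0.0996 in pairs 1, 2 and 3.

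The direction of 5 of the 6 probes depended on the turn of the swapped slides. The exception was Mt2 probe 1619, which was negative either way. Read without the turn, as would apply to values deposited as treated over control, mean effects were -0.16 for Mt1, -0.43 and -0.33 for Mt2 probes 1619 and 7427, -0.14 for Hmox1, -0.47 for the first Nfe2l2 probe and -0.27 for the second. None passed in that reading (lowest adjusted p = 0.245 with limma, for the first Nfe2l2 probe), while 219 other first-table probes did. With treated RNA in channel 1 alone, Mt1 stayed positive at 0.04 and the other 5 probes were negative. With it in channel 2 alone, all 6 were positive, from 0.26 to 0.66, and the first Nfe2l2 probe came nearest to the threshold (adjusted p = 0.0531). Slides and their swapped partners correlated with r of 0.700, 0.789 and 0.959 across first-table probes in pairs 1, 2 and 3, so that most of the variation between probes was common to both orientations, most of all in pair 3. The shared component had an SD across probes of 0.272, 0.271 and 0.679 in those pairs. When the trend of the effect on the shared component was removed in each pair, the means were 0.17 for Mt1, 0.12 for Hmox1 and 0.19 and 0.05 for the Nfe2l2 probes.

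**Figure D3:**
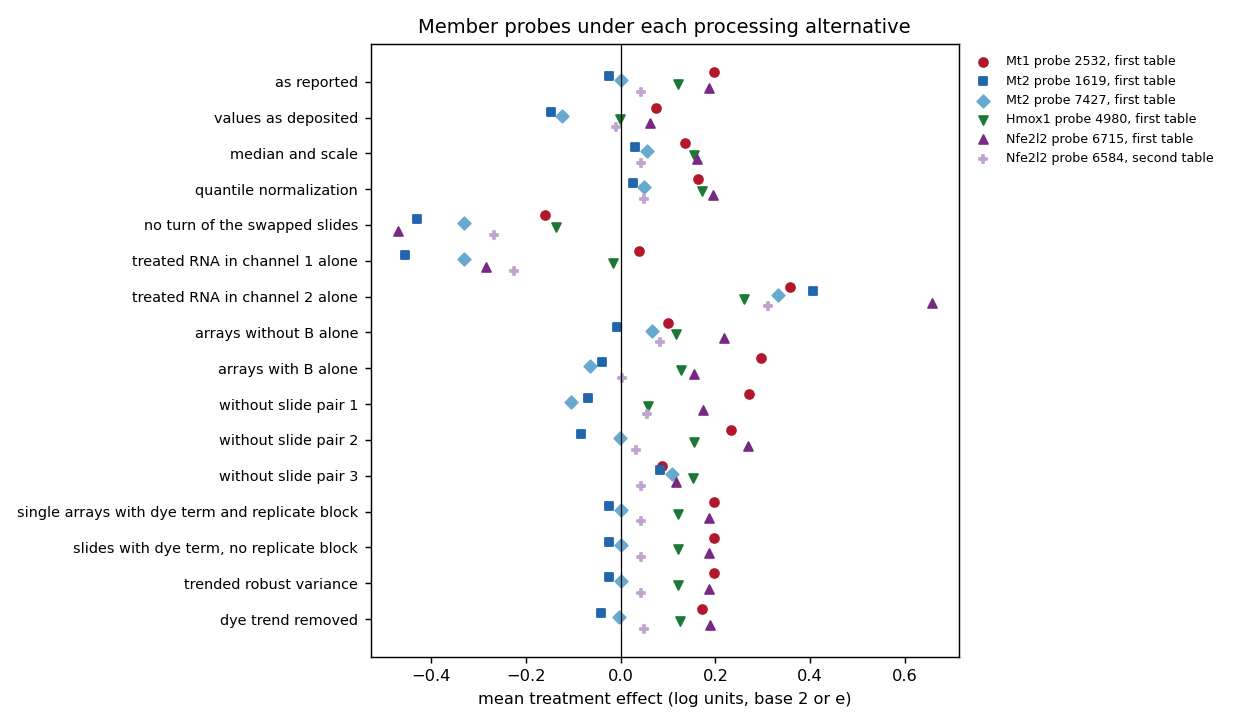
Mean treatment effect of each member probe (log units, base 2 or e) on the horizontal axis under each processing alternative on the vertical axis, with the reported setting on top. Points of the other variance model and of the fits with a dye term equal the reported ones by construction, since the channels are balanced and only p-values can change. Points spread left of 0 without the turn of the swapped slides, down to -0.47, and right of 0 with treated RNA in channel 2 alone, up to 0.66.

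None of the other genes that Nrf2 is known to control passed the test. Of 45 listed targets, 15 were measured in the first table. Among these 10 (66.7%) had positive means and 3 (20%) were positive in all 3 pairs, with a median effect of 0.02. Over all 3838 genes of that table, 51% had positive means, 13.4% were positive in all pairs and the median was 0.0012. Pair medians of the targets were 0.07, 0.05 and -0.01. Ftl1, the ferritin light chain that stores iron, had 0.22, 0.12 and 0.0058 and a mean of 0.11 ± 0.10 (SD, n = 3, mean of 5 probes). Esd, an esterase that acts in formaldehyde disposal, had 0.11, 0.05 and 0.16, and Prdx1, a peroxiredoxin that removes peroxide, had 0.17, 0.10 and 0.03. Blvrb, a biliverdin reductase that acts downstream of haem oxygenase, was negative in all 3 pairs with a mean of -0.03. Among 15 targets of the second table, 7 (46.7%) had positive means with a median of -0.0024, where 46% of all 4075 genes had positive means, and Ftl1 had 0.03 ± 0.04 there. Gsta4, a glutathione transferase for lipid aldehydes, had -0.06 ± 0.03. Idh1 and Me1, sources of cytosolic NADPH, had -0.03 ± 0.01 and -0.02 ± 0.01. Mgst1, a membrane glutathione transferase, was the 1 target of that table positive in all 3 pairs, at 0.01, 0.04 and 0.02.

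Among partners and regulators of Nrf2, 5 of 7 (71.4%) had positive means in the first table, against 51% of all genes, and 2 (28.6%) were positive in all 3 pairs, against 13.4%. Their median was 0.02. Nfe2l1, the sister factor Nrf1, had 0.18, 0.07 and 0.12 and a mean of 0.12 ± 0.05 (SD, n = 3), but -0.02 ± 0.05 over its 2 probes in the second table. Rbx1, a subunit of the ubiquitin ligase that Keap1 recruits, had 0.17, 0.02 and 0.04. Btrc was negative in all 3 first-table pairs, at -0.10, -0.02 and -0.0024, and had 0.01 ± 0.03 in the second table. Bach1, the repressor of the haem oxygenase gene, had 0.01 ± 0.07 and 0.0049 ± 0.0067 in the first and second tables. On second-table probes, 2 of 8 (25%) had positive means, against 46% of all genes, with a median of -0.02. Gsk3b, a kinase that promotes Nrf2 turnover, had -0.07, -0.11 and -0.14 (mean -0.11 ± 0.04, adjusted p = 0.883 with limma), against 0.04 ± 0.08 in the first. Trim21 was also negative in all 3 second-table pairs, with a mean of -0.02 ± 0.02. None of these genes passed in either table.

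Of zinc and copper genes, 4 of 6 (66.7%) had positive means in the first table, against 51% of all genes, with a median of 0.06. Mtf1, the factor that drives metallothionein genes, had 0.16, -0.21 and -0.29 and a mean of -0.11 ± 0.24 (SD, n = 3, mean of 2 probes). Slc31a1, a copper importer, had 0.15, 0.04 and 0.01 there and 0.02, 0.06 and 0.04 in the second table, positive in all pairs of both. On second-table probes, 4 of 12 (33.3%) had positive means, against 46% of all genes, with a median of -0.02. Atp7a and Ccs were negative in all 3 pairs there, with means of -0.03 ± 0.03 and -0.03 ± 0.04. In the first table Ccs had -0.14 ± 0.24. Of haem and iron genes, 5 of 12 (41.7%) had positive means in the first table (median -0.03) and 6 of 15 (40%) in the second (median -0.0070), against the same shares of all genes. Flvcr1, a haem exporter, had 0.35, 0.01 and 0.11 (mean 0.16 ± 0.17), and Hmox2, the constitutive haem oxygenase, had -0.03 ± 0.04 in the first and 0.02 ± 0.07 in the second table. Alas2, the erythroid enzyme that starts haem synthesis, had -0.05 in each second-table pair. Uros and Ireb2 were also negative in all 3 second-table pairs, with means of -0.04 ± 0.01 and -0.04 ± 0.04. Aco1 was negative in all 3 first-table pairs, with a mean of -0.05 ± 0.03. No gene of these lists passed in either table.

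**Figure D4:**
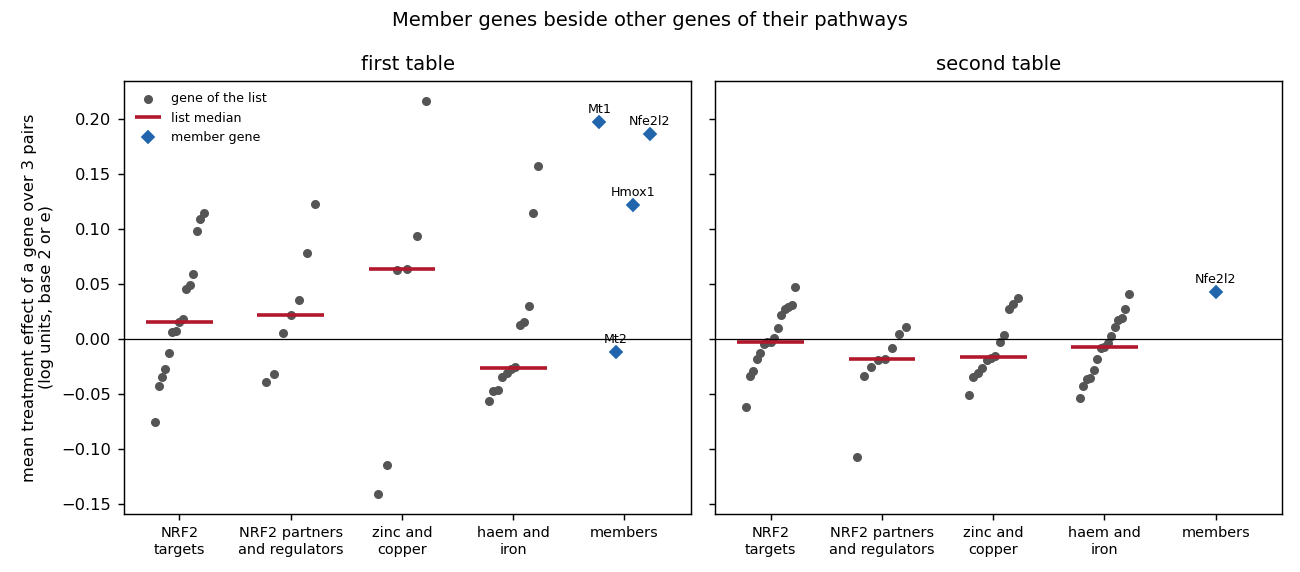
Mean treatment effect of each gene over 3 slide pairs (log units, base 2 or e) for genes of 4 lists (grey points, red line at the list median) and for the member genes (blue diamonds, probes of a gene averaged), by table. Mt1, Nfe2l2 and, narrowly, Hmox1 (0.12), with 1 probe each, lie above every Nrf2 target of the first table, whose highest value is 0.11. In the zinc and copper list Atp7b, at 0.22, lies above Mt1, with 0.08, -0.05 and 0.62 in pairs 1, 2 and 3. In the haem and iron list Flvcr1, at 0.16, lies above Hmox1. The second-table Nfe2l2 value of 0.04 lies among the targets of that table.

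Log ratios hold no levels, so it could not be checked how strongly the members or tissue markers were expressed. Visceral yolk sac markers, from the tissue known for metallothionein expression, had negative means for 5 of 5 measured first-table genes, from -0.06 to -0.02, where 51% of all genes had positive means. In pair 2 only Apoa1 of these was negative, and the list's pair medians were -0.08, 0.03 and -0.03. Trophoblast and decidua markers had positive means for 4 of 4 measured first-table genes, from 0.02 to 0.17. Of these, Krt8 and Krt18 were positive in all 3 pairs, with means of 0.08 ± 0.06 and 0.09 ± 0.01. Prl8a2, the highest, had 0.13, -0.19 and 0.58, and Hand1 had -0.06, 0.08 and 0.04. Of other markers, 0 of 1 primitive erythroid, 0 of 1 macrophage and 2 of 2 neural tube genes had positive first-table means. The second table had 0 of 2 primitive erythroid, 0 of 1 yolk sac and 1 of 1 trophoblast genes with positive means. That share was 46% over all genes there. The part of these markers in the member effects was not tested. In whole embryos fewer cells of a type and less RNA per cell cannot be told apart.

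By the pattern of single-array effects, Mt1 was most like Bmp1 (r = 0.986), Rrp7a (0.976) and Gm6905 (0.966) over 6 values. Like Mt1, Bmp1 had its highest effect in pair 3, at 0.95, against -0.26 and 0.14 in the others. Mt2 probe 1619 was most like Mtf2, Purb and Sh3bgrl3 (r from 0.974 to 0.985), and probe 7427 most like Gclc, Strap and Ing1 (0.994 to 0.995). Hmox1 was nearest to Ak4, Acbd3 and AU040972 (0.989 to 0.991). The first Nfe2l2 probe was nearest to Med10, 2700097O09Rik and Phactr1 (0.988 to 0.994), and the second to Cct5, Tfg and Nectin3 (0.982 to 0.986). These are the highest correlations among all probes of a table, over 6 values that share slides, and they carry no test. Those of Mt1 include its value of 0.74 from arrays with B in pair 3.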

How the data were processed

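The authors deposited 2 value tables, 1 for each platform, with 7680 probes and 12 arrays each and no missing value. The deposited values were treated as a score, a log ratio of base 2 or e, since neither the labels nor the tables state base, numerator, background correction, normalization or flags, and signal over background is unknown. Medians of single arrays lay between -0.305 and 1.12 (first table) or 0.272 and 2.1 (second). For each table, limma 3.58.1 (lmFit, eBayes; R 4.3.3) tested whether the mean slide pair effect was 0, Benjamini-Hochberg adjusted over all probes, threshold 0.05, with no filter. The slide pair is the replicate and is part of the fit, since the labels pair the slides. The script was tested on simulated data. Of 4749 and 4935 probes with 1 gene symbol, 4712 and 4884 were updated by gene identifier, and probes of a gene were averaged for lists. Lists were described by counts and medians. Named genes of the Nrf2, metal and haem lists had 1 sign in all 3 pairs and the largest means, up to 4 a list and table. Exceptions were chosen for their role or after their values were seen. They were Nfe2l1, Bach1, Gsk3b, Ftl1, Btrc and Ccs in the table where the rule did not pick them, and Mtf1, Hmox2 and Atp7b. Tissue markers were named apart from this rule. Members and lists were chosen with earlier results of these data known. Effects rest on 3 pairs, which limits their precision. Removal of the trend on the shared component (loess, span 0.3) and single arrays for the difference of Mt1 and Mt2 were added after the data were seen.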

Additional observations from a re-analysis of the deposited data

How the results depend on the processing

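With values as deposited, without centring, the median probe lay at -0.128 (first table) and -0.0543 (second). There 33 and 1 probes passed, and Mt2 probe 7427 (-0.1232), Hmox1 (-0.0021) and the second-table Nfe2l2 probe (-0.0098) were negative. Mt1 and the first Nfe2l2 probe stayed positive but fell from 0.1977 and 0.1861 to 0.0739 and 0.0623. Mt2 probe 1619 turned positive under scaling (0.0294), quantile normalization (0.0265) and with treated RNA in channel 2 alone (0.4072). Without the turn of the swapped slides 219 first-table probes passed, and signs turned for Mt1 (-0.1591), Mt2 probe 7427 (-0.331), Hmox1 (-0.1377) and Nfe2l2 (-0.4714 and, in the second table, -0.2681). With treated RNA in channel 1 alone 174 first-table probes passed, and Mt2 probe 7427 (-0.3304), Hmox1 (-0.016) and Nfe2l2 (-0.2853 and -0.225) were negative. With it in channel 2 alone 668 passed. Mt2 probe 7427 was also negative in arrays with B alone (-0.065) and after the trend on the shared component was removed (-0.0026). The cause of these changes was not tested.

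Leaving out slide pair 1, 2 or 3 gave 24, 30 and 24 passing first-table probes, and 40, 58 and 0 passing second-table probes. Means then ran from 0.0877 to 0.2715 for Mt1, from -0.0836 to 0.0823 for Mt2 probe 1619, from -0.1054 to 0.1081 for probe 7427, from 0.0579 to 0.1548 for Hmox1, from 0.1158 to 0.2695 for the first Nfe2l2 probe and from 0.0317 to 0.0547 for the second. The Mt1 and Mt2 difference ran from -0.0075 to 0.3592. The fit on single arrays with the slide pair as a replicate block called 0 probes, as did the fit of slides without the block. Both gave the same means (Mt1 0.1977), which the balanced channels fix in advance. No member passed under any alternative run; adjusted p ran from 0.0531 to 1.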
